A study of Arabidopsis thaliana with 48 samples.

Results

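Histone genes of Arabidopsis thaliana were followed by RNA-seq in nuclear and cytoplasmic fractions of tho5ab and Col-0 rosettes, with and without heat. The 40 genes are the rows of the count table that carry a listed locus identifier, out of 27420 genes in the table, and the rule that lists them uses identifiers and no threshold on a measured value. They comprise 8 H4 genes, 5 H3.1 genes, 3 H3.3 genes, 4 canonical H2A genes, 2 H2A.X genes, 3 H2A.W genes, 3 H2A.Z genes, 9 H2B genes and 3 linker histone H1 genes. The 26 genes of H4, H3.1, canonical H2A and H2B are called replication-dependent below, the 6 genes of H3.3 and H2A.Z are called replacement variants, and the other 8 genes are those of H2A.X, H2A.W and H1.

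The plants were tho5ab, which the labels give as a genotype without naming its alleles, and Col-0, the wild type. At an age of 14 d they were held at 37 °C for 3 h and harvested without recovery, or stayed at 21 °C. The labels describe the material both as seedling and, for the fractionation, as rosettes, and the fractions were separated by differential centrifugation. Each of the 8 groups of genotype, fraction and temperature held 6 libraries: tho5ab and Col-0 nuclei at 37 °C, tho5ab and Col-0 nuclei at 21 °C, tho5ab and Col-0 cytoplasm at 37 °C, and tho5ab and Col-0 cytoplasm at 21 °C. No label says whether the libraries of a group came from separate plants, so p-values measure the spread between these libraries, which may be technical.

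Histones H2A, H2B, H3 and H4 form the protein core around which DNA is wound in a nucleosome, and H1 binds the DNA between nucleosomes. The canonical proteins and H3.1 are made mainly while DNA is replicated, when new chromatin must be packed, whereas H3.3 and H2A.Z are put into chromatin throughout the cell cycle. H2A.Z in Arabidopsis is known for its nucleosomes at genes that respond to warmth, H2A.W for heterochromatin and H2A.X for the response to DNA breaks. Plant histone transcripts, unlike the replication-dependent ones of animals, end in a poly(A) tail. THO5 is a subunit of the THO complex, which acts on nascent transcripts and links transcription to mRNA export.

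The level of a gene is given in CPM, its count scaled to a common library total after adjustment of the totals by the trimmed mean of M values (TMM). Counts summed to between 2601946 and 19914838 in nuclear libraries and between 1025185 and 2174279 in cytoplasmic ones, of which 2645 to 35529 and 1879 to 9435 came from the histone genes. A gene was tested where it passed a filter on low counts over the 8 groups, which 17981 genes did, 38 histone genes among them. The H2A.Z gene HTA8, with at most 7.85 CPM in any library, and the H2B gene AT5G02570, which lies inside the H2A.W gene HTA12 on the opposite strand, did not pass. THO5B (AT1G45233) had 0 CPM in every tho5ab cytoplasmic library, against medians of 5.73 CPM at 37 °C and 3.2 CPM at 21 °C in Col-0 cytoplasm. In nuclei THO5B was low but not absent, with 0 to 0.554 CPM in tho5ab against 3.63 to 5.94 CPM in Col-0 at 37 °C, and 0.0629 to 3.01 CPM against 5.17 to 6.79 CPM at 21 °C. THO5A (AT5G42920) had a median of 23.6 CPM in tho5ab nuclei at 37 °C, against 183 CPM in Col-0, but 102 CPM in tho5ab nuclei at 21 °C, against 34.4 CPM in Col-0. A count over a whole gene does not tell which stretch of the transcript was read, so THO5A does not check the labels. Replicate 7 of tho5ab stood apart at 37 °C, with 118 CPM of THO5A in nuclei against 15.6 to 42.2 CPM in the other 5 libraries, where tho5ab nuclei at 21 °C had 76.3 to 118 CPM, and 35.5 CPM in cytoplasm against 1.69 to 19.8 CPM. Without these libraries, the counts of called histone genes given below were 22 in place of 23 for tho5ab against Col-0 in nuclei at 37 °C and 14 in place of 17 in cytoplasm. For heat in tho5ab they were 28 in place of 29 in nuclei and 26 in place of 28 in cytoplasm. Leaf photosynthesis genes summed to medians of 46582 to 131258 CPM in cytoplasm and 2027 to 3084 CPM in nuclei. Root markers summed to medians of 33.2 to 56.8 CPM in cytoplasm and 38.3 to 146 CPM in nuclei. These sums do not measure the amount of leaf or root tissue. In bulk fractions, fewer cells of a type and less RNA per cell cannot be told apart. In 16 libraries, spread over all 8 groups, genes nested on the opposite strand of highly expressed hosts held more counts than in the other 32, and the cause was not tested.

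Promoters were read from the reference genome because genes of 1 class moved together in several comparisons below, while in others a class was split. Whether a motif has a part in these changes was not tested. In windows of 250 bases before to 50 after the annotated start, searched on both strands, the histone octamer CGCGGATC occurred in 10 of 40 histone genes (25%), against 40 of 27443 protein-coding genes (0.146%). The hexamer ACGTCA occurred in 13 of 40 histone genes (32.5%), against 9.19% of all promoters. It was present in 9 of 9 H2B genes, and no H2B promoter held the octamer. Before the start, the H2B genes had 8 copies of the hexamer, at 31 to 195 bases from it. The octamer was found in 3 of 5 H3.1 and 2 of 4 canonical H2A promoters. The 200 bases before the start are shown for 5 H2B genes, which carry the hexamer, and for an H3.1 and a canonical H2A gene with 2 octamers each, in the genome build TAIR10.1 of RefSeq, 5′ to 3′ on the gene's strand. Capitals mark the hexamer in the first 5 sequences and the octamer, on either strand, in the last 2.
HTB1, chr1:2412738-2412937, forward strand: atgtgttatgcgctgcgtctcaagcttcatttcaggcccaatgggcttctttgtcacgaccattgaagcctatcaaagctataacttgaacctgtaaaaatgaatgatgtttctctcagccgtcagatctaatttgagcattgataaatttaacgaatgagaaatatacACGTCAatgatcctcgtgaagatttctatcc
HTB2, chr5:7652715-7652914, reverse strand: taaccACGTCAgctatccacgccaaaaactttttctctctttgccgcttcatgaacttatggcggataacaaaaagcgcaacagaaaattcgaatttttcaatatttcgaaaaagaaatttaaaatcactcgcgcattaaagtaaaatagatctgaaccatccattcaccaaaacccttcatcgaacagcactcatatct
HTB9, chr3:16898014-16898213, reverse strand: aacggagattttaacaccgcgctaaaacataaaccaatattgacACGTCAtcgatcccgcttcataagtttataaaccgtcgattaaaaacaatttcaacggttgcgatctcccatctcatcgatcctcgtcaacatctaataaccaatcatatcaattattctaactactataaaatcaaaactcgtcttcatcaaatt
HTB11, chr3:16914132-16914331, reverse strand: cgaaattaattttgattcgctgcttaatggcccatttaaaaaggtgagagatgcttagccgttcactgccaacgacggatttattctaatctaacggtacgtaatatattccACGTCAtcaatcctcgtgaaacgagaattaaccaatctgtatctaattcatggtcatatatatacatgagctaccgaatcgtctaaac
AT2G37470, chr2:15736527-15736726, forward strand: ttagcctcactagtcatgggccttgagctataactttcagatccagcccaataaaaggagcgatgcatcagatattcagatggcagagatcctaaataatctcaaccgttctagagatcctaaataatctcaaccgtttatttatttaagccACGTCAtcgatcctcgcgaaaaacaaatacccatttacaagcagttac
AT1G09200, chr1:2972335-2972534, reverse strand: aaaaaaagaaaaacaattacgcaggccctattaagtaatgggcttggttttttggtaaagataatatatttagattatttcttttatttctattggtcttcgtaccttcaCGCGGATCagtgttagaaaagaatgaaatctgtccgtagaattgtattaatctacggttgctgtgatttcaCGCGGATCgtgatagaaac
HTA10, chr1:18926611-18926810, forward strand: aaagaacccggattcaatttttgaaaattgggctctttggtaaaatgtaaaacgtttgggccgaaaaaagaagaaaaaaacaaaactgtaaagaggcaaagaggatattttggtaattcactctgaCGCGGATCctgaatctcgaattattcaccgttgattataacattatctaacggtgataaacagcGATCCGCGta
In the printed H2B sequences the hexamer stands at different distances from the start. Of the other motifs searched, the nonamer CATCCAACG and the E2F site TTTCCCGC were in none of the 40 promoters. They were in 0.171% and 0.798% of all promoters, so none among 40 is near those shares. The E2F site TTTGGCGC was in the near-identical H4 genes AT3G45930 and AT3G46320 alone (5.0% of histone promoters), against 0.434% of all promoters. It began 237 bases before the start in both. The minimal heat shock element GAANNTTC was in 3 of 40 histone promoters (7.5%), against 11.6% of all promoters. None of the octamers and hexamers in the printed sequences overlap. A match describes these letters and does not show that a factor binds there.

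Taken per length of the annotated exons, the highest mean levels over all 48 libraries were those of the H2B gene HTB4 with 296 CPM per kb and the H3.3 gene AT5G10980 with 231 CPM per kb. They were followed by the H1 gene AT1G06760 with 193 CPM per kb, the H3.3 gene AT4G40040 with 190.3 CPM per kb and the H2B gene HTB11 with 179 CPM per kb. The highest in the other classes were HTA9 for H2A.Z with 90.8 CPM per kb, and HTA10 for canonical H2A, AT5G65360 for H3.1, AT5G59690 for H4, H2AXA for H2A.X and HTA7 for H2A.W. The H4 genes AT3G45930 and AT3G46320, and AT5G59690 and AT5G59970, are near-identical pairs whose counts may be shared. AT1G07660 and AT1G07820 share 98.1% of their coding sequence and are 89.6% identical over the longest match of their transcripts, so their counts are uncertain too. HTA9, HTA12, HTA13, HTB9, GAMMA-H2AX and the H1 genes AT1G06760 and AT2G30620 overlap a gene on the other strand, and the strand setting of the counting is not given in the sources used here. AT3G27360, an H3.1 gene, overlaps another gene on its own strand.

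In nuclei, histone transcripts were higher in tho5ab than in Col-0 at both temperatures. At 21 °C 25 of 38 tested histone genes rose and 0 fell, with an adjusted p under 0.05 in edgeR's quasi-likelihood test, against 12.7% of all tested genes that rose and 8.80% that fell. At 37 °C 23 rose and 0 fell, against 18.5% and 15.9% of all tested genes. At an unadjusted p under 0.05, 0 fell at 21 °C and 1 at 37 °C in edgeR, and the Wald test of DESeq2 called the same numbers after adjustment. The median log2 fold change of the 38 genes was 0.91 at 21 °C and 1.18 at 37 °C, against -0.03 and -0.08 for all tested genes. The 6 tho5ab libraries all lay above the 6 Col-0 libraries for 20 histone genes at 21 °C and 24 at 37 °C, where 12.3% and 20.6% of all tested genes did so. As a share of all counts, the histone genes together took a median of 0.113% in tho5ab nuclei against 0.0503% in Col-0 nuclei at 37 °C, and 0.195% against 0.105% at 21 °C.

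**Figure D1:**
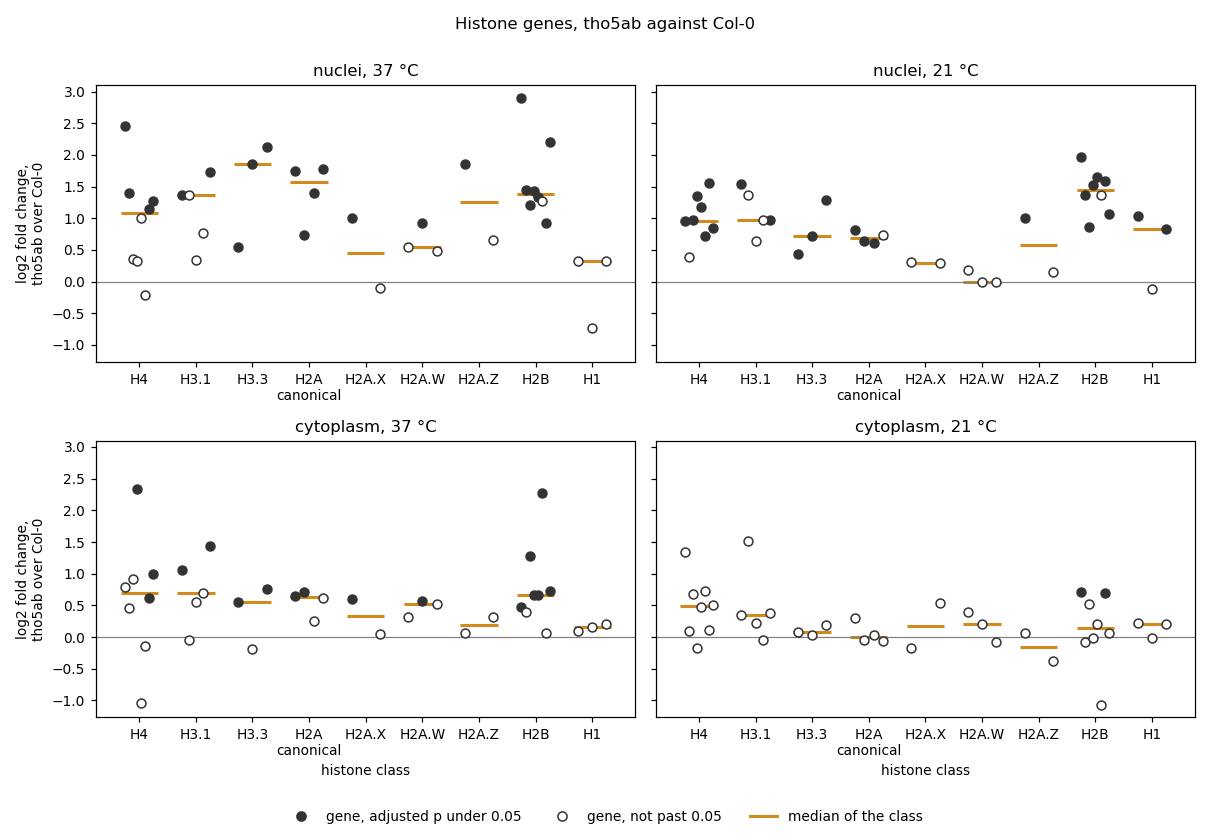
Log2 fold change of tho5ab over Col-0 (y axis) for each tested histone gene, by class (x axis), in nuclei (upper panels) and cytoplasm (lower panels) at 37 °C (left) and 21 °C (right). Filled points had an edgeR adjusted p under 0.05, open points did not, and orange lines are class medians. In nuclei 23 genes at 37 °C and 25 genes at 21 °C are filled and lie above 0, and in cytoplasm 17 at 37 °C and 2 at 21 °C.

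The H2B genes, which pair with H2A in the nucleosome, had the highest class median in nuclei at 21 °C. Of 8 tested H2B genes 7 rose at 21 °C and 7 at 37 °C, with class medians of 1.45 and 1.38. HTB1 measured 74.9, 90 and 127 CPM in the lowest, median and highest of 6 tho5ab nuclear libraries at 37 °C, against 10.7, 13.2 and 15.3 CPM in Col-0. At 21 °C it measured 34, 53.5 and 57.5 CPM in tho5ab nuclei, against 9.79, 12.7 and 16.8 CPM in Col-0. The groups did not overlap at either temperature, and every tho5ab nuclear library stood above every Col-0 one. The log2 fold change of HTB1 was 2.90 ± 0.16 (approximate SE, edgeR adjusted p = 6.1e-20) at 37 °C and 1.96 ± 0.16 (adjusted p = 1.8e-13) at 21 °C, the highest among the called histone genes in both comparisons.

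HTB4, the histone gene with the highest mean level, had 91.4, 106 and 118 CPM in tho5ab nuclei at 37 °C, against 19.7, 21.8 and 29.1 CPM in Col-0. At 21 °C it had 42, 48.7 and 72.7 CPM in tho5ab nuclei, against 19.4, 24.2 and 32.7 CPM in Col-0. Again no tho5ab library fell into the Col-0 range. The log2 fold change of HTB4 was 2.21 ± 0.14 (edgeR adjusted p = 9.8e-18) at 37 °C and 1.07 ± 0.14 (adjusted p = 6.4e-08) at 21 °C. HTB11 had 46.9, 48 and 48.8 CPM in tho5ab nuclei at 37 °C, against 15.7, 17.6 and 25 CPM in Col-0. Its fold changes were of like size at both temperatures, 1.33 ± 0.16 at 37 °C (edgeR adjusted p = 9.7e-10) and 1.65 ± 0.16 at 21 °C (adjusted p = 1.9e-11). HTB2, HTB9, AT2G28720 and AT2G37470 also rose at both temperatures, by 0.93 to 1.45 on the log2 scale at 37 °C and by 0.86 to 1.59 at 21 °C. The eighth tested H2B gene, AT3G53650, passed at neither temperature, although its libraries were apart at 37 °C.

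**Figure D2:**
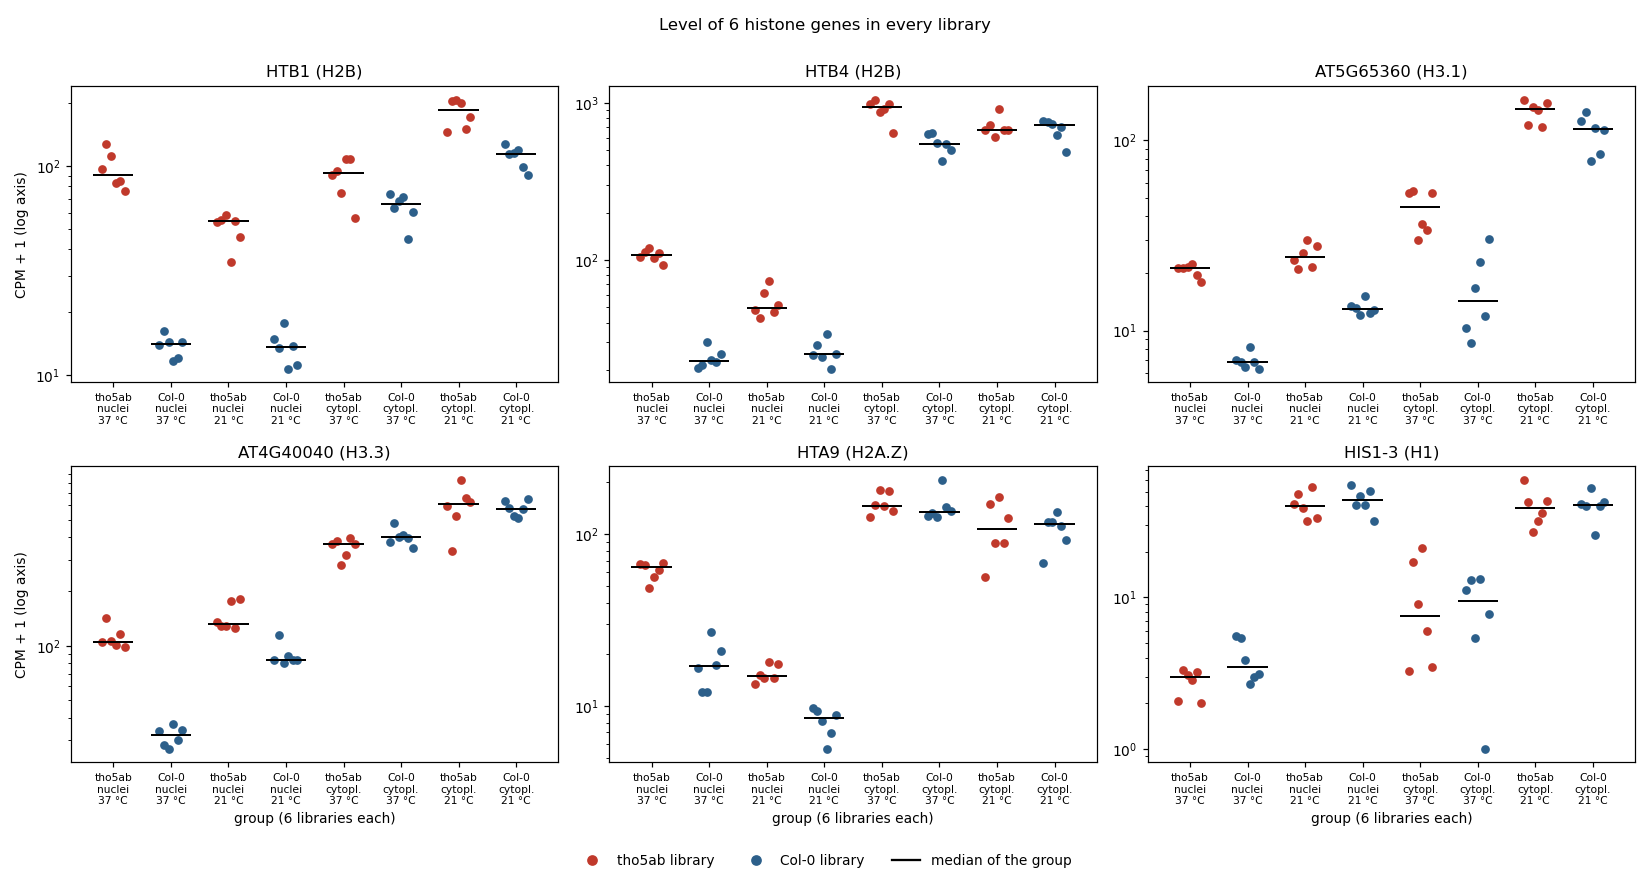
Level of 6 histone genes in every library, as CPM + 1 on a log axis (y), for the 8 groups of 6 libraries (x). Red points are tho5ab libraries, blue points Col-0 libraries, and black lines group medians. HTB1, HTB4 and AT4G40040 show tho5ab nuclei above Col-0 nuclei at both temperatures with no overlap, and HIS1-3 is lowest at 37 °C in both genotypes.

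The H4 and H3.1 genes, whose proteins together form the tetramer at the core of the nucleosome, followed in part. Of 8 H4 genes 7 rose in tho5ab nuclei at 21 °C and 4 at 37 °C, with class medians of 0.96 and 1.08. At 21 °C AT5G59690 had 8.57, 11 and 17.1 CPM in tho5ab nuclei, against 3.09, 4.11 and 5.32 CPM in Col-0, and the libraries did not overlap. Its log2 fold change was 1.56 ± 0.21 (edgeR adjusted p = 9e-08), with the near-identical copy AT5G59970 at 0.84 ± 0.24 (adjusted p = 0.0073). At 37 °C the H4 gene AT1G07660 had 14.4, 15.9 and 18.1 CPM in tho5ab nuclei, against 2.22, 2.86 and 3.38 CPM in Col-0. Its counts are uncertain because of the close copy AT1G07820, and it had the second highest called change among histone genes there, 2.45 ± 0.34 (edgeR adjusted p = 6.1e-08).

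Of 5 H3.1 genes 2 rose at either temperature, AT1G09200 and AT5G65360. AT5G65360 had 16.9, 20.4 and 21.4 CPM in tho5ab nuclei at 37 °C, against 5.31, 5.8 and 7.2 CPM in Col-0. At 21 °C it had 20.2, 23.5 and 29 CPM in tho5ab nuclei, against 11.1, 11.9 and 14.2 CPM in Col-0. The libraries were apart at both temperatures, with log2 fold changes of 1.73 ± 0.18 (edgeR adjusted p = 3.6e-11) at 37 °C and 0.98 ± 0.18 (adjusted p = 2.8e-05) at 21 °C. The canonical H2A genes rose in 4 of 4 cases at 37 °C and 3 of 4 at 21 °C, with class medians of 1.58 and 0.69. HTA10 had 27.5, 29.2 and 31.9 CPM in tho5ab nuclei at 37 °C, against 7.15, 7.99 and 11.3 CPM in Col-0. Its change there was 1.75 ± 0.16 (edgeR adjusted p = 1.1e-12), and it was 0.81 ± 0.16 (adjusted p = 0.00011) at 21 °C. RAT5, a canonical H2A gene first found through resistance to Agrobacterium transformation, rose at 37 °C by 1.78 ± 0.32 (edgeR adjusted p = 1e-05).

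The replacement variants rose alongside the replication-dependent genes. At 37 °C 4 of 5 tested replacement variants and 17 of 25 tested replication-dependent genes rose in tho5ab nuclei, with median log2 fold changes of 1.85 and 1.33. At 21 °C 4 of 5 and 19 of 25 rose, with medians of 0.72 and 0.98. Of the other 8 genes 2 rose at each temperature, with medians of 0.41 and 0.24. No test of the difference between the sets was made, since a set is no replicate.

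The 3 H3.3 genes rose in tho5ab nuclei at both temperatures. AT4G40040 had 97.4, 104 and 141 CPM in tho5ab nuclei at 37 °C, against 25.8, 30.9 and 35.6 CPM in Col-0. At 21 °C it had 125, 131 and 181 CPM in tho5ab nuclei, against 79.6, 82.3 and 114 CPM in Col-0, so the groups were apart at both temperatures. Its log2 fold change was 1.85 ± 0.14 (edgeR adjusted p = 4.3e-15) at 37 °C and 0.72 ± 0.14 (adjusted p = 9.2e-05) at 21 °C. AT5G10980 had 64.6, 77.5 and 83 CPM in tho5ab nuclei at 37 °C, against 13.4, 16.2 and 23.6 CPM in Col-0. Its changes were 2.13 ± 0.15 (edgeR adjusted p = 1.5e-16) at 37 °C and 1.29 ± 0.15 (adjusted p = 1.8e-09) at 21 °C. AT4G40030, the neighbour of AT4G40040 on the same strand, changed least of the called genes in both comparisons, by 0.54 ± 0.16 (edgeR adjusted p = 0.0059) at 37 °C and 0.43 ± 0.15 (adjusted p = 0.039) at 21 °C.

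Of the H2A.Z genes HTA9 rose and HTA11 did not pass. HTA9 had 47.5, 63.1 and 66.5 CPM in tho5ab nuclei at 37 °C, against 11, 16 and 26 CPM in Col-0. At 21 °C it had 12.4, 13.9 and 16.9 CPM in tho5ab nuclei, against 4.62, 7.49 and 8.78 CPM in Col-0. No libraries overlapped, with log2 fold changes of 1.85 ± 0.19 (edgeR adjusted p = 3.7e-11) at 37 °C and 1.01 ± 0.20 (adjusted p = 0.00011) at 21 °C. HTA11 had medians of 1.29 CPM in tho5ab nuclei and 0.889 CPM in Col-0 nuclei at 37 °C.

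Among H2A.X, H2A.W and H1, called genes differed by temperature. H2AXA passed at 37 °C and not at 21 °C, with 34.6, 40.7 and 44.9 CPM in tho5ab nuclei against 16.3, 19 and 24.2 CPM in Col-0 (1.01 ± 0.15, edgeR adjusted p = 4.4e-07). The H2A.W gene HTA7 likewise passed at 37 °C and not at 21 °C, with 18.3, 21.2 and 26.8 CPM against 9.76, 11.2 and 14.1 CPM (0.93 ± 0.18, edgeR adjusted p = 4e-05). Both sets of libraries were apart. The H1 genes AT1G06760 and AT2G30620 passed at 21 °C and not at 37 °C: AT1G06760 had 144, 161 and 193 CPM in tho5ab nuclei, against 68.5, 80.8 and 87.3 CPM in Col-0. Its log2 fold change was 1.04 ± 0.14 (edgeR adjusted p = 2.5e-07), and that of AT2G30620 was 0.83 ± 0.17 (adjusted p = 0.00017). The difference between temperatures, tested in edgeR as an interaction, passed for HTA7 (0.94 ± 0.25, adjusted p = 0.02) and AT1G06760 (-0.72 ± 0.20, adjusted p = 0.032), where the call ended without the filter on low counts (adjusted p = 0.053). It did not pass for H2AXA (0.70 ± 0.21, adjusted p = 0.052) or AT2G30620 (-0.50 ± 0.24, adjusted p = 0.33).

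Of the 40 histone genes 21 have no intron in the annotation: 7 of the H4, all 5 H3.1 and all 9 H2B genes. Intronless genes as a whole rose often in tho5ab nuclei: at 21 °C 15 of 20 tested intronless histone genes rose (75.0%), against 867 of 2534 intronless genes of the genome (34.2%). Their median log2 fold change was 1.26, against 0.70 for all tested intronless genes. Histone genes with introns rose in 10 of 18 cases (55.6%), against 9.17% of all genes with introns, with medians of 0.63 and -0.11. At 37 °C 12 of 20 intronless histone genes (60.0%) and 11 of 18 with introns (61.1%) rose, against 36.3% and 15.6% of all genes of their kind. Both shares stood above the background of their structure at both temperatures, and the part that gene structure has in the class values was not tested.

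In the cytoplasm at 21 °C 2 of 38 histone genes rose in tho5ab and 0 fell in edgeR, against 1.61% and 1.97% of all tested genes. At an unadjusted p under 0.05, 9 rose and 0 fell, and DESeq2 called 5 and 0. Both were H2B genes. HTB1 had 145, 185 and 207 CPM in tho5ab cytoplasm, against 90.1, 113 and 126 CPM in Col-0, with no overlap and a log2 fold change of 0.71 ± 0.16 (edgeR adjusted p = 0.0069). HTB2 had 273, 358 and 379 CPM in tho5ab cytoplasm, against 151, 217 and 248 CPM in Col-0, also apart, with a change of 0.70 ± 0.18 (edgeR adjusted p = 0.019). With the 32 libraries of low opposite-strand counts alone neither passed, and their changes were 0.82 and 0.58.

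At 37 °C 17 of 38 histone genes rose in tho5ab cytoplasm and 0 fell in edgeR, against 6.37% and 7.71% of all tested genes, and the median log2 fold change was 0.56. At an unadjusted p under 0.05, 18 rose and 0 fell, and DESeq2 called 17 and 0. The called genes were 13 of 25 replication-dependent genes, 2 of 5 replacement variants and 2 of the other 8, with 6 of 8 tested H2B genes among them. The H3.1 gene AT5G65360 had 28.8, 43.8 and 53.2 CPM in tho5ab cytoplasm, against 7.63, 13.3 and 29.2 CPM in Col-0. The lowest tho5ab library lay within the Col-0 range, and the change was 1.44 ± 0.22 (edgeR adjusted p = 2.9e-06). The H3.3 gene AT5G10980 had 268, 372 and 401 CPM in tho5ab cytoplasm, against 185, 203 and 256 CPM in Col-0, apart from each other (0.76 ± 0.15, edgeR adjusted p = 0.00022). The highest fitted changes were those of AT3G45930 (2.33 ± 0.69, edgeR adjusted p = 0.017) and the H2B gene AT3G53650 (2.27 ± 0.64, adjusted p = 0.012). AT3G45930 rests on 21 counts over the 6 tho5ab libraries against 5 over the 6 Col-0 libraries. AT3G53650 was low too, with 4.53 to 22.3 CPM in tho5ab and 0 to 4.87 CPM in Col-0. Between 10 and 15 genes were called when 1 replicate number was left out, and 8 in the 32 libraries with low opposite-strand counts.

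Whether the genotype difference was larger in nuclei than in cytoplasm was tested as an interaction. At 21 °C it was positive in 12 of 38 histone genes and negative in 0, against 4.50% of all tested genes positive and 1.90% negative. At 37 °C it was positive in 13 and negative in 0, against 9.88% and 4.81%. At an unadjusted p under 0.05 the negative counts were 0 at 21 °C and 1 at 37 °C, and 1 at either temperature in DESeq2. At 21 °C the highest values among called genes were those of the H2B genes HTB9 (1.55 ± 0.23, edgeR adjusted p = 4.4e-06) and AT2G28720 (1.45 ± 0.26, adjusted p = 0.00013). At 37 °C the highest called ones were those of HTB1 (2.42 ± 0.23, edgeR adjusted p = 1.1e-11) and the H3.3 gene AT4G40040 (2.04 ± 0.20, adjusted p = 3.2e-11). AT4G40040 had 279, 365 and 394 CPM in tho5ab cytoplasm at 37 °C, against 347, 397 and 479 CPM in Col-0, so cytoplasmic libraries overlapped while nuclear ones did not. The count of 12 at 21 °C was 5 in the 32 libraries with low opposite-strand counts, and the count of 13 at 37 °C was 7 without replicate 5. The interaction was positive in 8 of 20 intronless histone genes at 21 °C and 7 of 20 at 37 °C. Of all tested intronless genes it was positive in 14.6% and 21.5%. The medians were 0.95 and 0.42, against 0.69 and 0.72 for all tested intronless genes. With introns, 4 of 18 and 6 of 18 histone genes were positive, against 2.84% and 7.97% of such genes. The part of gene structure was not tested.

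More histone genes fell than rose with heat in both fractions and genotypes. In cytoplasm 23 of 38 histone genes fell and 5 rose at 37 °C in tho5ab, against 20.0% and 22.2% of all tested genes, and 27 fell and 0 rose in Col-0, against 19.7% and 24.7%. The count of genes that rose in Col-0 cytoplasm was 1 at an unadjusted p under 0.05 in edgeR and 1 in DESeq2. In nuclei 19 fell and 10 rose in tho5ab, against 27.1% and 25.1% of all tested genes, and 23 fell and 4 rose in Col-0, against 23.8% and 21.9%. The median log2 fold change of heat was -1.29 in tho5ab cytoplasm, -1.52 in Col-0 cytoplasm, -0.34 in tho5ab nuclei and -0.98 in Col-0 nuclei. In each of these comparisons 3 of 4 tested shoot meristem markers fell too, and their part was not tested. By set, 17 of 25 replication-dependent genes fell in tho5ab cytoplasm and 19 in Col-0 cytoplasm, against 12 in tho5ab nuclei and 15 in Col-0 nuclei. Of the 5 tested replacement variants 2 fell in tho5ab cytoplasm and 4 in Col-0 cytoplasm, and 3 fell in tho5ab nuclei and 4 in Col-0 nuclei.

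**Figure D3:**
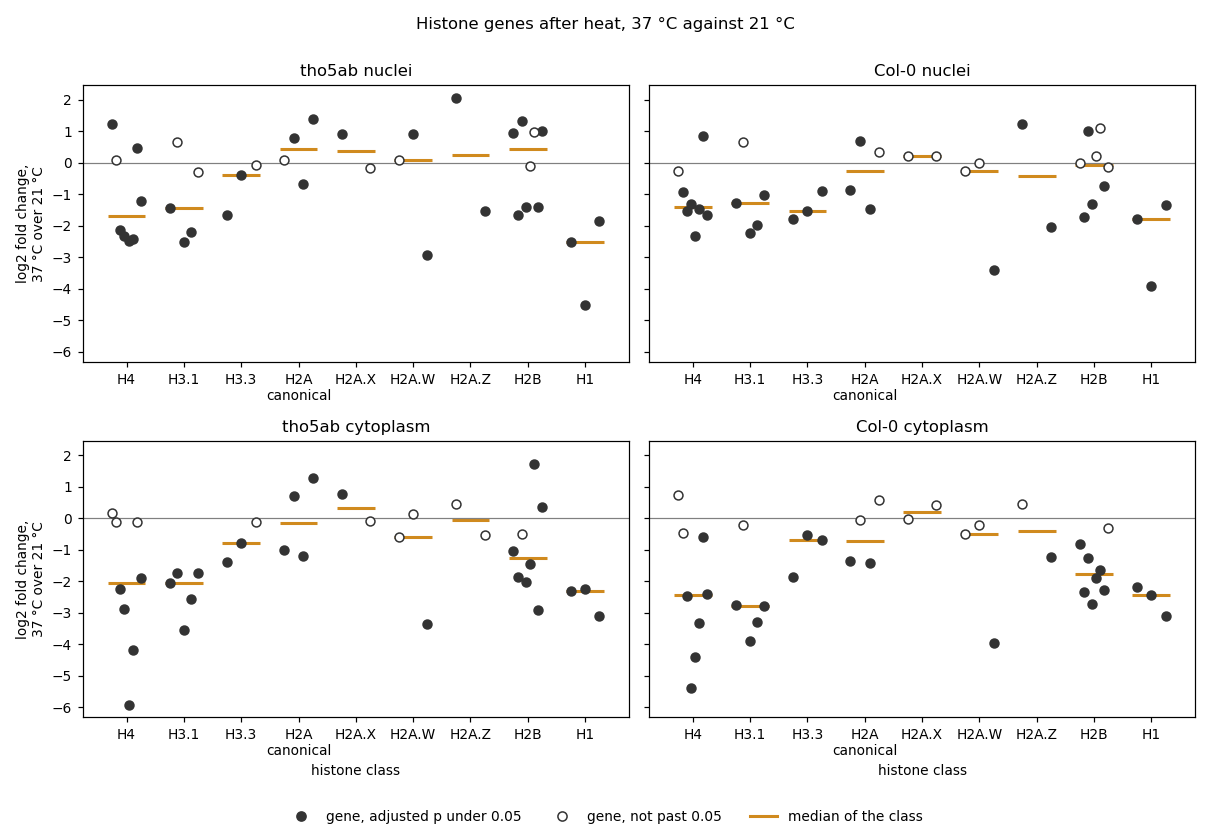
Log2 fold change of 37 °C over 21 °C (y axis) for each tested histone gene, by class (x axis), in tho5ab (left) and Col-0 (right), in nuclei (upper panels) and cytoplasm (lower panels). Filled points had an edgeR adjusted p under 0.05, open points did not, and orange lines are class medians. The 3 H1 genes are filled and below 0 in each panel, while the H2A.Z gene HTA9 stands above 0 and filled in both nuclear panels.

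The deepest single falls in cytoplasm were those of H4 genes, but the class was not the lowest. Its median was -2.07 in tho5ab and -2.43 in Col-0, against -2.32 for H1 in tho5ab and -2.79 for H3.1 in Col-0. The H4 gene AT5G59690 had medians of 109 CPM at 37 °C and 99.9 CPM at 21 °C in tho5ab cytoplasm. In nuclei 5 of 8 H4 genes fell and 2 rose in tho5ab, and 6 fell and 1 rose in Col-0. Of all tested genes 25.1% and 21.9% rose there. AT3G45930 had 0, 3.48 and 7.93 CPM at 37 °C against 19.6, 26.7 and 39.7 CPM at 21 °C in tho5ab cytoplasm, and 0, 0.802 and 1.62 CPM at 37 °C against 26.1, 29.6 and 41.3 CPM at 21 °C in Col-0. The temperatures were apart in both genotypes. The fitted change was -2.87 ± 0.45 (edgeR adjusted p = 9.1e-07) in tho5ab and -5.37 ± 0.56 (adjusted p = 2.2e-11) in Col-0, near the lower limit of detection at this depth. Its near-identical copy AT3G46320 changed by -5.92 ± 0.73 (edgeR adjusted p = 2.9e-09) in tho5ab and by -4.41 ± 0.64 (adjusted p = 1.1e-07) in Col-0. At 37 °C AT3G46320 had only 2 counts over the 6 tho5ab libraries and 5 over the 6 Col-0 libraries, so the size of its change is uncertain. AT3G53730 changed by -4.18 ± 0.33 (edgeR adjusted p = 3.6e-15) in tho5ab cytoplasm and by -3.31 ± 0.32 (adjusted p = 2.3e-12) in Col-0.

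All 5 H3.1 genes fell in tho5ab cytoplasm and 4 of 5 in Col-0 cytoplasm, with class medians of -2.04 and -2.79. AT5G65360 had 28.8, 43.8 and 53.2 CPM at 37 °C against 116, 146 and 163 CPM at 21 °C in tho5ab cytoplasm, and 7.63, 13.3 and 29.2 CPM against 76.6, 113 and 139.8 CPM in Col-0. The temperatures did not overlap in either genotype, and the changes were -1.73 ± 0.19 (edgeR adjusted p = 1.3e-10) and -2.79 ± 0.21 (adjusted p = 2.7e-16). The H2B genes were split. HTB2 had 20.3, 41.7 and 70.3 CPM at 37 °C against 273, 358 and 379 CPM at 21 °C in tho5ab cytoplasm, and 27.1, 42.9 and 60.9 CPM against 151, 217 and 248 CPM in Col-0. It fell by 2.91 ± 0.20 on the log2 scale in tho5ab (edgeR adjusted p = 2.1e-17) and by 2.28 ± 0.20 in Col-0 (adjusted p = 6.6e-14).

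HTB4 had 641, 945 and 1047 CPM at 37 °C against 609, 670.2 and 913 CPM at 21 °C in tho5ab cytoplasm, and 425, 549.5 and 638 CPM against 488, 717 and 766 CPM in Col-0. These ranges overlapped, the change of 0.36 ± 0.14 in tho5ab passed in edgeR (adjusted p = 0.033) but was 0.23 and did not pass with the size factors of DESeq2, and HTB4 in Col-0 did not pass. In tho5ab nuclei HTB4 rose by 1.0 ± 0.14 (edgeR adjusted p = 3.1e-08) and HTB1 by 0.95 ± 0.15 (adjusted p = 8e-07), with no overlap between temperatures. AT2G37470 rose in nuclei of both genotypes, with 15.4, 19.9 and 24.1 CPM at 37 °C against 5.06, 8.12 and 9.58 CPM at 21 °C in tho5ab, and 6.32, 8.6 and 11.4 CPM against 3.42, 4.39 and 5.48 CPM in Col-0. The libraries were apart in both, with changes of 1.34 ± 0.21 (edgeR adjusted p = 4.9e-07) and 1.0 ± 0.21 (adjusted p = 0.00014). The canonical H2A gene RAT5 rose in tho5ab by 1.38 ± 0.32 in nuclei (edgeR adjusted p = 0.00024) and by 1.27 ± 0.35 in cytoplasm (adjusted p = 0.0029).

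Among the replacement variants, all 3 H3.3 genes fell in Col-0 nuclei, 2 of 3 fell in tho5ab nuclei, and HTA9 rose in both. AT5G10980 did not pass in tho5ab nuclei, with medians of 77.5 CPM at 37 °C and 82.7 CPM at 21 °C. AT4G40040 in nuclei had 97.4, 104 and 141 CPM at 37 °C against 125, 131 and 181 CPM at 21 °C in tho5ab, and 25.8, 30.9 and 35.6 CPM against 79.6, 82.3 and 114 CPM in Col-0. The tho5ab ranges overlapped and the Col-0 ranges did not, with changes of -0.40 ± 0.14 (edgeR adjusted p = 0.014) and -1.52 ± 0.14 (adjusted p = 7.8e-13). AT4G40030 fell in the 4 heat comparisons by 1.38 to 1.86 on the log2 scale. HTA9 in nuclei had 47.5, 63.1 and 66.5 CPM at 37 °C against 12.4, 13.9 and 16.9 CPM at 21 °C in tho5ab, and 11, 16 and 26 CPM against 4.62, 7.49 and 8.78 CPM in Col-0. It rose by 2.06 ± 0.20 in tho5ab nuclei (edgeR adjusted p = 9.6e-13) and by 1.22 ± 0.20 in Col-0 nuclei (adjusted p = 9.8e-07), and no libraries overlapped. In cytoplasm HTA9 did not pass in either genotype, with medians of 146 CPM at 37 °C and 106 CPM at 21 °C in tho5ab. HTA11, the other tested H2A.Z gene, went the opposite way in nuclei, by -1.54 ± 0.40 in tho5ab (edgeR adjusted p = 0.001) and -2.05 ± 0.41 in Col-0 (adjusted p = 4.9e-05).

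The linker histone genes fell in each of the 4 heat comparisons, with class medians of -2.32 in tho5ab cytoplasm, -2.42 in Col-0 cytoplasm, -2.50 in tho5ab nuclei and -1.79 in Col-0 nuclei. HIS1-3, a linker histone known to be induced by drought, had 1.01, 1.97 and 2.32 CPM at 37 °C against 30.9, 39.2 and 52.4 CPM at 21 °C in tho5ab nuclei, and 1.69, 2.49 and 4.54 CPM against 30.9, 42.8 and 54.1 CPM in Col-0. The temperatures were far apart in both, with changes of -4.52 ± 0.34 (edgeR adjusted p = 2.2e-16) and -3.90 ± 0.33 (adjusted p = 1.6e-14), the lowest of any histone gene in nuclei. AT1G06760 had 106, 133 and 165 CPM at 37 °C against 516, 654 and 793 CPM at 21 °C in tho5ab cytoplasm, and 101, 116 and 167 CPM against 477, 568 and 650.4 CPM in Col-0. No libraries overlapped, and the changes were -2.32 ± 0.15 (edgeR adjusted p = 4.4e-18) and -2.19 ± 0.15 (adjusted p = 2.4e-17). Of the H2A.W genes HTA6 fell in all 4 comparisons, by 2.91 to 3.95 on the log2 scale, while HTA7 rose in tho5ab nuclei by 0.92. The H2A.X genes fell in none, and H2AXA rose in tho5ab by 0.91 in nuclei and 0.76 in cytoplasm.

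The heat response differed between genotypes for few histone genes. In nuclei the interaction of genotype and heat was positive for 7 of 38 and negative for 1, against 2.51% and 1.18% of all tested genes. HTB4 (1.14 ± 0.20, edgeR adjusted p = 0.00012) and AT4G40040 (1.12 ± 0.20, adjusted p = 0.00016) had the highest values among called genes, and the H1 gene AT1G06760 had the negative one (-0.72 ± 0.20, adjusted p = 0.032). In cytoplasm it was positive for 4 and negative for 0, against 1.84% and 2.19% (1 negative at an unadjusted p under 0.05 and 1 in DESeq2). The highest called values were those of AT3G53650 (3.35 ± 0.90, edgeR adjusted p = 0.025) and AT5G65360 (1.06 ± 0.28, adjusted p = 0.021). In Col-0 cytoplasm at 21 °C AT3G53650 had 28.6 CPM in replicate 1 and 0 to 8.07 CPM in the rest. Its Col-0 level at 37 °C was 0 to 4.87 CPM, so its value rests on few counts and largely on 1 library. The nuclear count of 8 was 15 in DESeq2 and 4 in the 32 libraries with low opposite-strand counts. The cytoplasmic count ranged from 0 to 4 when 1 replicate number was left out, with 0 without replicate 1 and 0 without replicate 2, and was 0 in the 32 libraries with low opposite-strand counts.

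Heat also acted unequally in the fractions. In tho5ab the heat effect was higher in nuclei than in cytoplasm for 12 of 38 histone genes and lower for 1, against 8.97% and 8.07% of all tested genes. In Col-0 it was higher in nuclei for 13 and lower for 2, against 7.37% and 8.64%. HTB1 in tho5ab (1.99 ± 0.22, edgeR adjusted p = 2.5e-09) and AT3G45930 in Col-0 (4.08 ± 0.72, adjusted p = 3.4e-05) were among the highest called. AT3G45930 rests on 5 counts over the 6 Col-0 cytoplasmic libraries at 37 °C. Its near-identical copy AT3G46320 had the highest value in tho5ab (3.44), with 2 counts over the 6 tho5ab cytoplasmic libraries at 37 °C. The size of both values is thus uncertain. HIS1-3 had the lowest value in both, -2.28 ± 0.52 in tho5ab (edgeR adjusted p = 0.0013) and -1.48 ± 0.50 in Col-0 (adjusted p = 0.034).

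Relative to other transcripts, histone transcripts were lower in nuclei than in cytoplasm. The gene counts were 34 of 38 lower in tho5ab at 37 °C, 35 in Col-0 at 37 °C, 36 in tho5ab at 21 °C and 36 in Col-0 at 21 °C, and 0 were higher in any of the 4 comparisons, also at an unadjusted p under 0.05, while DESeq2 called 1 higher in tho5ab at 37 °C and 1 in Col-0 at 21 °C. Of all tested genes 26.9%, 28.9%, 27.4% and 28.0% were lower, and 37.0%, 32.6%, 40.5% and 38.9% were higher, in the same order. The median log2 ratio of nuclei over cytoplasm was -1.70 in tho5ab and -2.19 in Col-0 at 37 °C, and -2.46 in tho5ab and -3.04 in Col-0 at 21 °C. HTB4 had the lowest ratio in Col-0 at both temperatures, -4.58 ± 0.16 at 37 °C (edgeR adjusted p = 2.3e-30) and -4.75 ± 0.16 at 21 °C (adjusted p = 4.3e-31). In tho5ab at 21 °C its ratio was -3.74 ± 0.15 (edgeR adjusted p = 1e-27). HIS1-3 passed in neither genotype at 21 °C, with medians of 39.2 CPM in tho5ab nuclei and 38.3 CPM in tho5ab cytoplasm, and 42.8 CPM in Col-0 nuclei and 40 CPM in Col-0 cytoplasm. These ratios are relative to library totals that differ in composition between fractions, and the amount of RNA per fraction was not measured in the table used here.

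Summed over a class, per length, the 9 H2B genes had the highest level of the classes in every group but Col-0 nuclei at 21 °C, where the 3 H1 genes stood above them with medians of 144 and 133 CPM per kb. Its sum had a median of 345 CPM per kb in tho5ab nuclei at 37 °C (326 to 398) and 95.8 in Col-0 (85.6 to 120.3), and 401 CPM per kb in tho5ab nuclei at 21 °C (299 to 422) and 133 in Col-0 (120.1 to 152). In cytoplasm the H2B medians were 1284 CPM per kb in tho5ab and 768 in Col-0 at 37 °C, and 2179.9 in tho5ab and 1982 in Col-0 at 21 °C. The tho5ab sums lay above the Col-0 sums without overlap in nuclei at both temperatures and in cytoplasm at 37 °C. The H3.3 sum had medians of 172 CPM per kb in tho5ab nuclei and 47.4 in Col-0 nuclei at 37 °C, and 212 and 111 at 21 °C. The H2A.Z sum, to which HTA9 gave most, had medians of 76.5 CPM per kb in tho5ab nuclei and 20.1 in Col-0 nuclei at 37 °C, and 21.4 and 13.1 at 21 °C. The H1 sum had medians of 42.4 CPM per kb in tho5ab nuclei and 34.5 in Col-0 nuclei at 37 °C, with overlapping libraries, and 238 and 144 at 21 °C, without overlap.

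**Figure D4:**
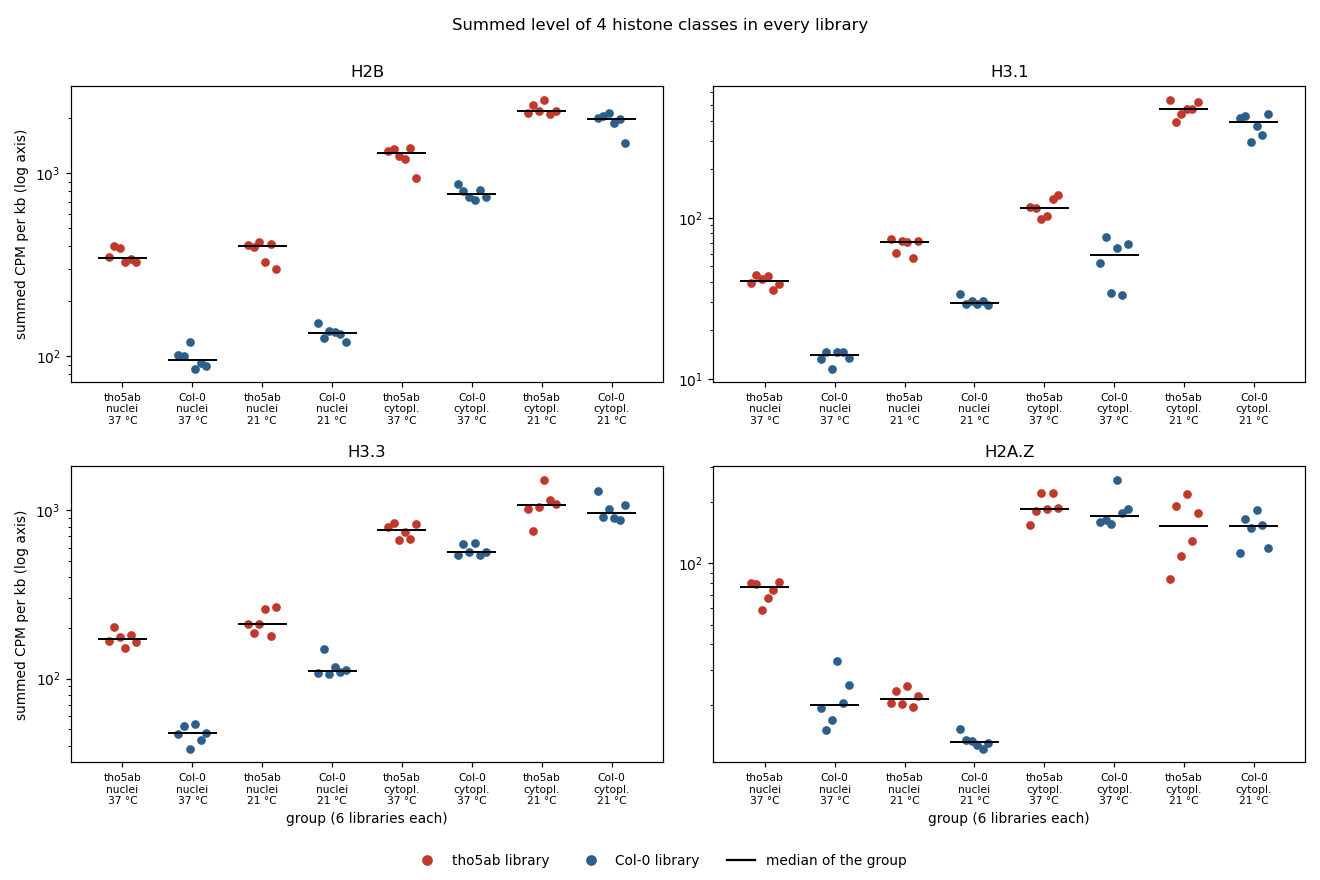
Summed level of the H2B, H3.1, H3.3 and H2A.Z genes in every library, in CPM per kb on a log axis (y), for the 8 groups of 6 libraries (x). Red points are tho5ab libraries, blue points Col-0 libraries, and black lines group medians. In nuclei tho5ab lies above Col-0 in the 4 classes at both temperatures, and the H3.1 medians in cytoplasm are 116 (tho5ab) and 58.8 (Col-0) at 37 °C and 473 (tho5ab) and 391 (Col-0) at 21 °C.

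The share of the variants within their family shifted with heat. In cytoplasm H3.3 made up a median of 87.2% of the summed H3 level at 37 °C (83.9% to 87.9%) and 69% at 21 °C (65.4% to 76.2%) in tho5ab, and 91% (89.2% to 94.4%) and 71.9% (68.1% to 77.6%) in Col-0. Every cytoplasmic library at 37 °C stood above every one at 21 °C. The class medians of the heat change there were -0.77 for H3.3 and -2.04 for H3.1 in tho5ab, and -0.69 and -2.79 in Col-0. In nuclei the H3.3 share was 81% at 37 °C and 75.9% at 21 °C in tho5ab, and 78% and 78.8% in Col-0, with overlapping libraries in both genotypes. H2A.Z made up a median of 31% of the summed H2A level at 37 °C (27.6% to 32.8%) and 15% at 21 °C (13.4% to 16.2%) in tho5ab nuclei, and 20% (16.9% to 29.3%) and 13% (11.9% to 13.5%) in Col-0 nuclei. The nuclear shares at 37 °C lay above those at 21 °C without overlap in both genotypes. These nuclear values follow the single gene HTA9, which gave most of the H2A.Z sum and overlaps a gene on the other strand. HTA11, the other tested H2A.Z gene, fell with heat in nuclei. In cytoplasm the H2A.Z share was 27.1% at 37 °C and 19.5% at 21 °C in tho5ab, with overlap, and 32.9% and 22.5% in Col-0, without. These sums were not tested, and the shares depend on the exon length used: without it, the H3.3 share in cytoplasm was 90.4% at 37 °C and 77.9% at 21 °C in tho5ab.

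**Figure D5:**
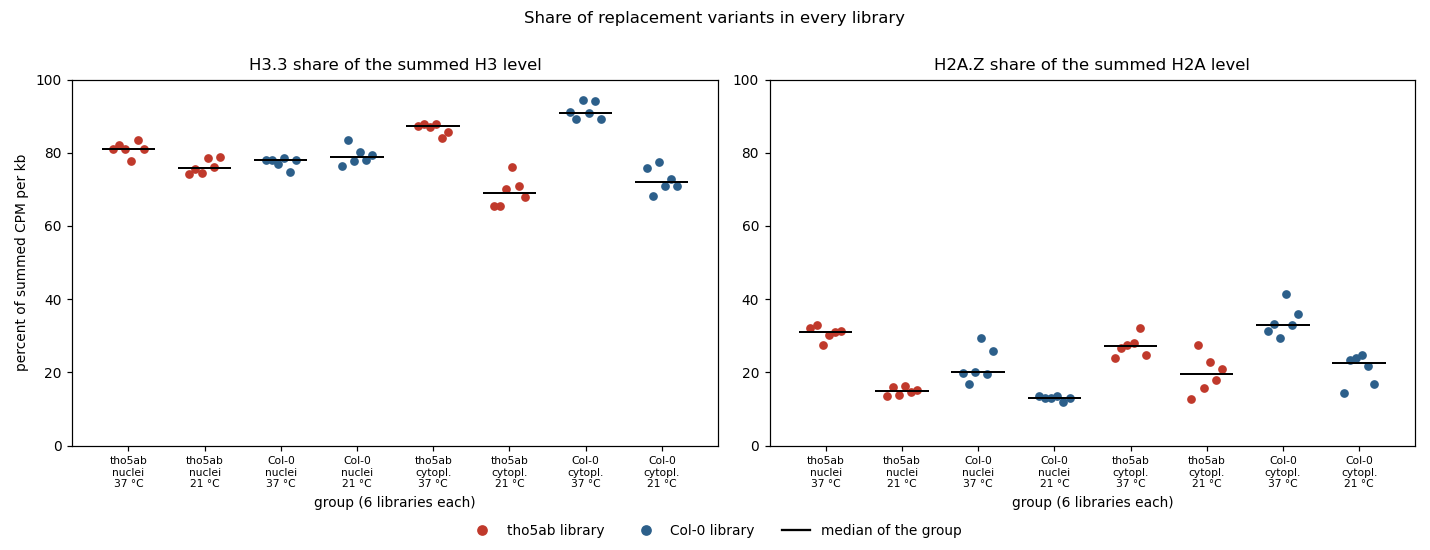
Share of H3.3 in the summed H3 level and of H2A.Z in the summed H2A level (y axis, percent of CPM per kb) in every library of the 8 groups (x). Red points are tho5ab libraries, blue points Col-0 libraries, and black lines group medians. The H3.3 share in cytoplasm is 83.9% or more at 37 °C and 77.6% or less at 21 °C. The H2A.Z share in tho5ab nuclei, to which HTA9 gave most, has medians of 31% at 37 °C and 15% at 21 °C.

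Genes that act with histones were followed as lists. Of 15 genes of DNA replication and S phase, when canonical histones are needed, 3 fell and 1 rose with heat in tho5ab cytoplasm and 5 fell and 0 rose in Col-0 cytoplasm, while 9 fell and 2 rose in tho5ab nuclei and 9 fell and 0 rose in Col-0 nuclei. Of all tested genes 20.0%, 19.7%, 27.1% and 23.8% fell in these comparisons, so the 3 of 15 in tho5ab cytoplasm is near that background. Of genes that rose in Col-0, edgeR at an unadjusted p under 0.05 gave 0 in cytoplasm and 1 in nuclei, and DESeq2 gave 0 and 2. MCM6, a subunit of the replicative helicase, changed by -2.31 ± 0.37 in tho5ab nuclei (edgeR adjusted p = 6.8e-07) and -2.08 ± 0.36 in Col-0 nuclei (adjusted p = 4.8e-06). TSO2, a subunit of ribonucleotide reductase, was higher in tho5ab than in Col-0 at 37 °C, by 1.71 ± 0.20 in nuclei (edgeR adjusted p = 1.1e-09) and 1.5 ± 0.22 in cytoplasm (adjusted p = 1.6e-06). It does not stand for the list: 2 of 15 genes were higher there in nuclei and 2 in cytoplasm. Of all tested genes 18.5% and 6.37% were, so the nuclear count is not above that background. The list medians were -0.02 in nuclei and 0.57 in cytoplasm. Between genotypes at 21 °C 0 of the 15 genes passed in nuclei, with 0 also at an unadjusted p under 0.05 in edgeR and 2 lower in DESeq2, where 25 histone genes did, and their median log2 fold change was -0.22. Of all tested genes 12.7% were higher and 8.80% lower in tho5ab there. Summed, the list had medians of 122 CPM in tho5ab nuclei and 144 CPM in Col-0 nuclei at 21 °C, and 90.9 and 82.3 CPM at 37 °C. Of 10 mitosis genes 3 fell with heat in tho5ab cytoplasm, 5 in Col-0 cytoplasm, 7 in tho5ab nuclei and 8 in Col-0 nuclei, and 0 rose, against the same 20.0%, 19.7%, 27.1% and 23.8% of all tested genes that fell. The count that rose was also 0 at an unadjusted p under 0.05 in edgeR and in DESeq2 in these 4 comparisons. The mitosis list summed to medians of 14.8 CPM in tho5ab nuclei and 12.3 CPM in Col-0 nuclei at 37 °C, and 39.9 and 44.1 CPM at 21 °C.

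Of 16 tested genes for histone chaperones and H2A.Z exchange, 6 rose and 4 fell with heat in tho5ab nuclei and 7 rose and 3 fell in Col-0 nuclei, where 25.1% and 21.9% of all tested genes rose and 27.1% and 23.8% fell in tho5ab and Col-0. The counts that fell are near those shares. FAS1 and FAS2, subunits of the CAF-1 complex that deposits H3.1 and H4 on new DNA, were among the genes that fell there. In cytoplasm both fell with heat in Col-0, while in tho5ab FAS2 fell and FAS1 did not pass. FAS1 changed by -2.76 ± 0.42 in tho5ab nuclei (edgeR adjusted p = 2.5e-07) and -3.05 ± 0.42 in Col-0 nuclei (adjusted p = 4.7e-08). NRP2, a chaperone of the NAP1 family, rose by 1.56 ± 0.23 in tho5ab nuclei (edgeR adjusted p = 1.5e-07) and 0.93 ± 0.23 in Col-0 nuclei (adjusted p = 0.00077). Between genotypes 3 of 16 rose and 0 fell in tho5ab nuclei at 21 °C, and 3 rose and 1 fell at 37 °C, near the 12.7% and 18.5% of all tested genes that rose. SPT16, a subunit of the FACT complex, led both, with changes of 1.52 ± 0.13 at 37 °C (edgeR adjusted p = 1.8e-13) and 1.24 ± 0.13 at 21 °C (adjusted p = 3.9e-10). Shoot meristem markers were lower after heat as well: 3 of 4 tested markers of 9 fell in each of the 4 heat comparisons. Their sum had medians of 21.9 CPM at 37 °C against 74.3 CPM at 21 °C in tho5ab nuclei, and 33.9 against 70.8 CPM in Col-0 nuclei. In cytoplasm the medians were 18.7 CPM at 37 °C against 54.6 CPM at 21 °C in tho5ab, and 16.2 against 46.1 CPM in Col-0. CLV1, a receptor kinase of the stem cell niche, changed by -2.12 ± 0.34 in tho5ab nuclei (edgeR adjusted p = 7.7e-07) and -1.39 ± 0.33 in Col-0 nuclei (adjusted p = 0.00053). WUS and CLV3, which define that niche, were at 0 in the 4 cytoplasmic groups. Root marker sums were higher in tho5ab than in Col-0 nuclei, with medians of 146 and 59.6 CPM at 21 °C and 63.4 and 38.3 CPM at 37 °C. Of 5 tested root markers 2 rose there at 21 °C and 1 at 37 °C, with median log2 fold changes of 0.04 and 0.13. The sums thus do not stand for the list as a whole. In cytoplasm the medians were 56.8 CPM in tho5ab and 45.4 CPM in Col-0 at 21 °C, and 33.2 and 37.1 CPM at 37 °C. The part of the shoot and root markers in the histone differences was not tested.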

How the data were processed

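The authors deposited raw counts per gene for 48 libraries. The submitters' processing notes name the build TAIR10 and the tools STAR 2.7.8a, Picard, UMI-tools and featureCounts. How strand and multiply mapped reads were treated is not given in the sources used here. Groups came from the sample labels.

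The model was that of edgeR 4.0.16 (R 4.3.3), with 1 mean per group, TMM scaling, the filterByExpr minimum, quasi-likelihood F tests of 18 contrasts, and Benjamini-Hochberg adjustment over the 17981 tested genes with a threshold of 0.05. The approximate SE is the size of the log2 fold change divided by the square root of F. Fold changes of genes near 0 counts depend on edgeR's prior count. Levels per kb used the union of exons annotated by RefSeq in TAIR10.1, near-identical copies were found with blastn 2.17.0+, and class sums were not tested. The members, although listed by identifier, and the gene lists were chosen with earlier results of these data known. Named genes were the highest member per class and the 2 highest and 2 lowest called members per contrast, with further members named as examples, and of each list the 2 highest and 2 lowest called. The fit was tested on simulated data. Alternatives were DESeq2 1.42.0 size factors and its Wald test, no filter, fewer libraries and a replicate block. Deviations of same-numbered libraries had a median correlation of 0.03 over all comparisons, with single values of either sign. Nuclei and cytoplasm carry the same replicate numbers within each genotype and temperature, and there the correlations ran from -0.05 to 0.24. The numbers were not taken as pairs, so the tests of nuclei against cytoplasm leave out any pairing of fractions.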

Additional observations from a re-analysis of the deposited data

Results flagged for a closer look

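In 3 of 88 groups of class sums and shares that were checked, 1 library lay far from the other 5, where chance gives about 1 in 20. Levels of single genes are not among these groups. The highest H3.3 sum in Col-0 nuclei at 21 °C was 149.8 CPM per kb, and the highest H2A.Z sum in Col-0 cytoplasm at 37 °C was 258 CPM per kb. The lowest H2A.Z share of H2A in Col-0 nuclei at 21 °C was 11.9%.

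Other values were marked because an effect differed between 2 settings by an edgeR test of that difference. The difference between tho5ab and Col-0 was not the same in nuclei as in cytoplasm for 12 histone genes at 21 °C and 13 at 37 °C. The named ones are AT2G28720 (1.45) and HTB9 (1.55) at 21 °C, and HTB1 (2.42) and AT4G40040 (2.04) at 37 °C. The heat effect differed between tho5ab and Col-0 for 4 histone genes in cytoplasm and 8 in nuclei. Those named are AT3G53650 (3.35) and AT5G65360 (1.06) in cytoplasm, and AT1G06760 (-0.72), AT4G40040 (1.12) and HTB4 (1.14) in nuclei. The heat effect differed between nuclei and cytoplasm for 13 histone genes in tho5ab and 15 in Col-0. Named are HTB1 (1.99), HIS1-3 (-2.28) and AT3G46320 (3.44) in tho5ab, and HIS1-3 (-1.48), AT3G45930 (4.08), AT3G53650 (2.73) and AT4G40040 (-0.99) in Col-0. Each value in brackets is a difference of log2 fold changes, and the cause was not tested. AT3G45930, AT3G46320 and AT3G53650 had libraries at 0 CPM in cytoplasm at 37 °C, so their values rest on few counts.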

How the results depend on the processing

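The log2 fold changes of named genes, 142 in all, were recomputed under the alternatives that could give them, which the fit with only the groups compared could for 100. They kept their direction and their side of the threshold 1971 times, lost the call with the direction kept 117 times, and reversed 0 times. Counts of called histone genes moved beyond 1.5 times as follows. With only the 32 libraries of low opposite-strand counts, tho5ab against Col-0 gave 0 genes in cytoplasm at 21 °C and 8 at 37 °C, the interaction of genotype with fraction at 21 °C gave 5, and that of genotype with heat gave 0 in cytoplasm and 4 in nuclei. The Wald test of DESeq2 gave 5 genes for tho5ab against Col-0 in cytoplasm at 21 °C, and 8 in cytoplasm and 15 in nuclei for genotype with heat. Without a filter, genotype with heat in cytoplasm gave 2, and with only the groups compared tho5ab against Col-0 in cytoplasm at 37 °C gave 10. When each replicate number was left out, these counts ran from 10 to 15 (tho5ab against Col-0 in cytoplasm at 37 °C), 9 to 12 and 7 to 12 (genotype with fraction at 21 °C and 37 °C), and 0 to 4 and 5 to 8 (genotype with heat in cytoplasm and nuclei). The cause was not tested. With the replicate block no count of called genes moved beyond 1.5 times, and 140 of 142 named values kept their call. Same-numbered libraries had correlations of -0.40 to 0.46 between their deviations, over 0.1 in 21 of 66 pairs. Between nuclei and cytoplasm they ran from -0.05 to 0.24, with 0.05 to 0.15 in Col-0 at 21 °C. The numbers were not taken as pairs, and whether same-numbered fractions share material was not tested.

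DESeq2 size factors moved the median of all genes, for nuclei over cytoplasm to 0.85 in tho5ab and 0.85 in Col-0 at 21 °C, against 0.48 and 0.42 with TMM, without reversing a named value. Without members that match another annotated gene nearly identically, by a copy elsewhere (AT3G45930, AT3G46320, AT5G59690, AT5G59970) or by a gene that overlaps them in place (AT3G27360, GAMMA-H2AX, HTB9, AT1G06760), log2 differences of class sums became, for H4, -1.49 with heat in tho5ab cytoplasm and -0.89, -1.81, -2.11 and -2.2 for nuclei over cytoplasm (tho5ab and Col-0 at 37 °C, tho5ab and Col-0 at 21 °C). For H1 they became -2.94 and -2.97 with heat in tho5ab and Col-0 cytoplasm, 0.33 for tho5ab over Col-0 nuclei at 21 °C, and -1.36, -1.3 and -1.92 for nuclei over cytoplasm in tho5ab at 37 °C, Col-0 at 37 °C and Col-0 at 21 °C. H2A.X became 0.91 with heat in tho5ab nuclei, the H3.3 share 78.8% in Col-0 nuclei at 37 °C, and the H2A.Z share 13.6% in Col-0 nuclei at 21 °C. Without division by length, H2B in nuclei over cytoplasm was -3.22 in Col-0 at 37 °C, and the H3.3 share was 86.7% and 84.3% (tho5ab and Col-0 nuclei, 37 °C), 83.6% and 86.5% (nuclei, 21 °C), 90.4% and 94.4% (cytoplasm, 37 °C) and 77.9% and 80.9% (cytoplasm, 21 °C). The depth of the cytoplasmic libraries limits the genes near 0 counts there.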
